A study of Saccharomyces cerevisiae with 10 samples.

Results

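The comparison set baker's yeast that had received a feed of mixed sugars for 9 h against the same kind of culture at the start of the feed. The cells were Saccharomyces cerevisiae TMB3500 in every group, and its genotype was not stated in the labels. All cultures first grew aerobically in a stirred fermentor in 0.7 L of mineral medium supplemented with 20 g/L glucose. The sugar feed at 9 h (2 arrays) carried glucose, mannose and xylose at concentrations like those of a spruce hydrolysate, and its rate was raised linearly from 0.04 to 0.1 L/h over 16 h. The start group (2 arrays) was sampled when the feed began, at 0 h. These are 4 of the 10 arrays in the series; the other groups, with 2 biological replicates each, were the sugar feed at 18 h and a feed of spruce hydrolysate at 9 h and 18 h. Total RNA was read on Affymetrix 3′ expression arrays. From 5811 S. cerevisiae probe sets (groups of probes that together read a transcript), those naming a single reading frame were kept, and 1 probe set was taken for each gene, the brightest over all arrays. This gave 5654 genes, and all of them entered the comparison.

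A yeast batch culture on glucose first ferments the sugar to ethanol. When glucose runs out, the cells turn to ethanol and acetate, for which they need respiration, the glyoxylate cycle and gluconeogenesis, and they grow slowly, store trehalose and glycogen and switch on stress genes. When sugar becomes available again, Ras, protein kinase A and TORC1 signalling and the lifting or imposing of glucose repression reset these programmes, and the genes for ribosomes, building blocks and the entry into the cell cycle are the classical growth genes. The labels do not state how much glucose, ethanol or acetate was left in the medium at either sampling.

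Values are the deposited log2 levels after robust multi-array averaging (RMA), so a difference of 1 is 2-fold. A level is read on a probe set of its own, and levels of different genes are therefore not set against each other. Differences are the sugar feed at 9 h minus the start. They were tested with limma in 1 fit over all 10 arrays, and a gene was called at a Benjamini-Hochberg adjusted p under 0.05 over all 5654 genes. Gene coordinates come from the deposited table of the authors, whose genome build was not stated there; of 5643 genes matched to the RefSeq R64 annotation, 5585 had the same start and end there.

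The levels of the replicates correlated across genes at 0.9898 for the sugar feed at 9 h and 0.9799 for the start. The median gene differed by 0.15 between the 2 sugar arrays and by 0.241 between the 2 start arrays, against 0.743 between the group means. At least a 2-fold difference separated the sugar arrays in 53 genes, the start arrays in 180 and the hydrolysate arrays at 9 h, which share the fit, in 201. Between 97.24% and 98.6% of genes exceeded the background of their array (the level that 95% of its probe sets for Schizosaccharomyces pombe, another yeast, stayed below). Markers of both mating types, such as STE2 of a cells and STE3 of alpha cells, were above background on all 10 arrays, and MF(ALPHA)1 on 2. The haploid markers RME1, STE4, STE5 and GPA1 were above background on all 10 arrays as well. Being above background therefore did not tell these cell types apart. The mating type and ploidy of the strain are not given in the sources used here.

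3 array-level measures moved with the groups. The 27 probe sets for hybridization spike-ins, RNAs added to the hybridization mix, averaged 10.52 and 10.35 on the sugar arrays and 11.50 and 11.87 on the start arrays. The 24 ribosomal RNA probe sets averaged 5.84 and 6.02 on the sugar arrays and 8.17 and 8.08 on the start arrays. The 3′ minus 5′ difference of 8 control messages, a sign of RNA length, was 0.671 and 0.667 on the sugar arrays and 0.778 and 0.884 on the start arrays. None of these measures overlapped between the groups, and their part in the gene results was not tested. RMA sets the arrays to a common distribution, so every difference below is relative to the other genes of the array. The RMA levels were also scaled on the spike-ins, after that step and not in place of it. This added the same 1.247 to every gene, so a fall smaller than this became a rise.

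**Figure D1:**
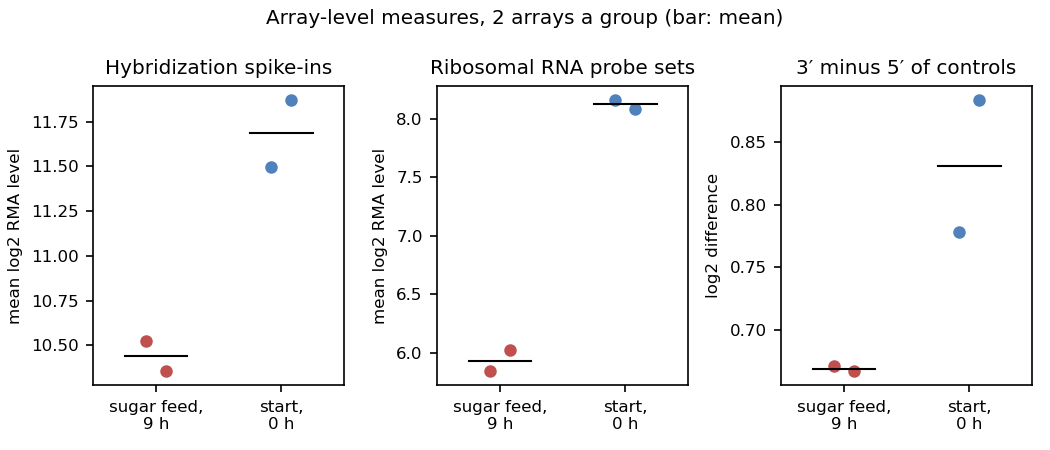
Mean log2 level of the hybridization spike-ins (left), mean log2 level of the ribosomal RNA probe sets (middle) and 3′ minus 5′ log2 difference of 8 control messages (right) on the 2 sugar-feed arrays at 9 h (red) and the 2 start arrays (blue), with the group mean as a bar. The groups do not overlap in any panel, and the sugar feed is the lower one in each; the axes do not start at 0.

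Most of the transcriptome differed between the groups. limma called 3742 of 5654 genes (66.2%), 1919 higher in the sugar feed at 9 h (33.9%) and 1823 lower (32.2%). Of these, 1176 were at least 2-fold higher (20.8%) and 941 at least 2-fold lower (16.6%). The arrays of the groups did not overlap in 4674 genes (82.7%), and the median difference of all genes was -0.0049. With spike-in scaling 4157 genes were called higher and 246 lower, and 672 of the genes called lower had fallen by more than the 1.247 of that scaling. Each gene list below is read against these shares. A list in which about 1 in 3 members rose and as many fell does not stand out from the rest of the genome.

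The 15 largest rises included regulators of the cell cycle and enzymes of biosynthesis. PCL1, a G1 cyclin of the kinase Pho85 (YNL289W, chromosome XIV, 87897 to 88736), stood at 11.29 and 11.23 on the sugar arrays and at 4.28 and 4.31 on the start arrays. At the start it was below background on both arrays, so it was at least 84.0-fold higher in the sugar feed (limma adjusted p = 3.98e-06). TOS6, which encodes a cell wall protein (YNL300W, chromosome XIV, 65744 to 66052), had 13.69 and 13.49 in the sugar feed, against 6.92 and 6.75 at the start. Both sugar arrays were thus far above both start arrays, and the difference was 6.76 (SE 0.416, limma adjusted p = 5.6e-06). RNR1, the large subunit of ribonucleotide reductase, the enzyme that makes the building blocks of DNA (YER070W, chromosome V, 298950 to 301616), had 12.81 and 12.73 in the sugar feed and 6.85 and 6.05 at the start. It rose by 6.32 (SE 0.302, limma adjusted p = 2.97e-06).

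HCM1, a forkhead transcription factor of S phase, stood at 10.90 and 10.56 in the sugar feed and at 5.63 and 6.10 at the start, a rise of 4.87. The G1 cyclin gene CLN2 stood at 10.40 and 10.09 in the sugar feed and at 5.72 and 6.41 at the start, a rise of 4.18. The checkpoint kinase gene RAD53 rose by 4.13 and YOX1, a repressor of genes of the M/G1 boundary, by 4.13. STB1, a regulator of the G1/S transcription factors, was below background at the start and at least 10.4-fold higher in the sugar feed. The other large rises were in SAM2 (4.70), PHO3 (4.49), PRY2 (4.45), ADE4 (4.30), DAL1 (4.29), the uncharacterised YJL118W (4.19) and CYS3 (4.07), most of which return below with their pathways. In all 15 both sugar arrays exceeded both start arrays, as the choice of these genes required.

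**Figure D2:**
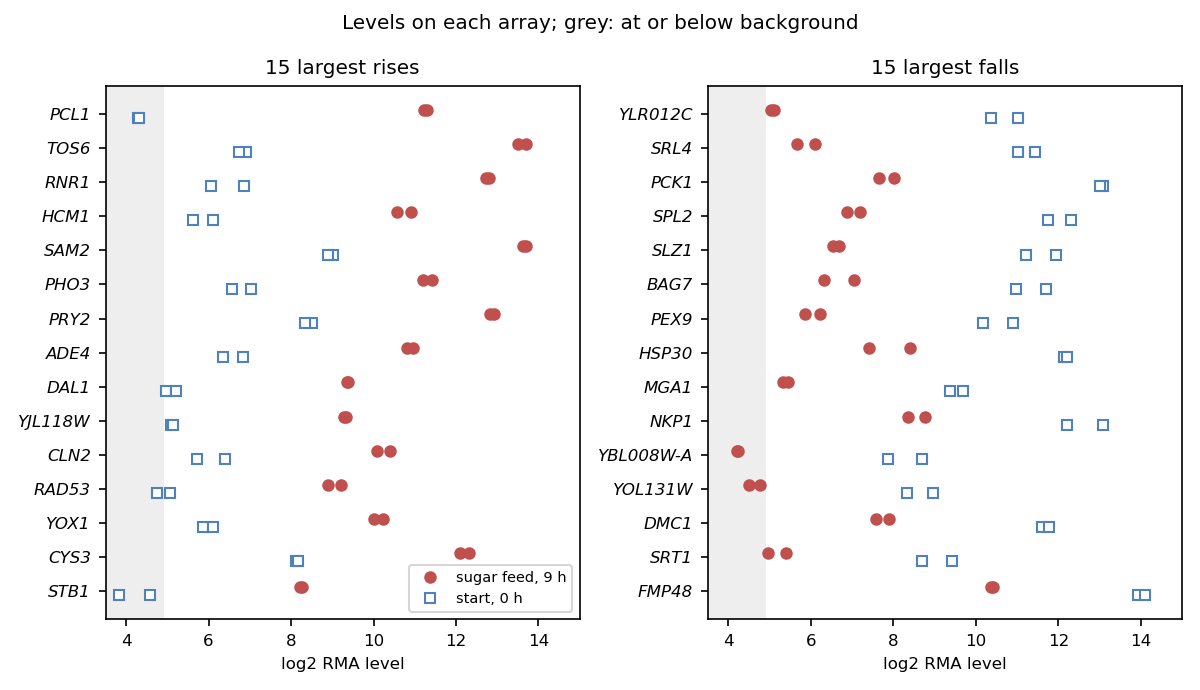
log2 RMA levels of the 15 genes with the largest rises (left) and the 15 with the largest falls (right), 1 point per array, with the sugar feed at 9 h as filled red circles above the start as open blue squares; the grey band is at or below background. PCL1 stands at 11.29 and 11.23 in the sugar feed, against 4.28 and 4.31 in the grey band at the start.

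Of the 48 measured cell cycle and DNA replication genes, 35 were called higher and 3 lower, with a median difference of 1.60. The rises included the G1 cyclin gene CLN1 (11.68 and 11.24 in the sugar feed, 7.70 and 7.37 at the start, difference 3.92), the mitotic cyclin genes CLB1 (3.59) and CLB2 (3.24), and POL30, the sliding clamp of DNA polymerases (3.01). All 6 genes of the replicative helicase that were measured, MCM2 to MCM7, rose, by between 1.22 (MCM4) and 2.87 (MCM6). The members called lower were SML1, an inhibitor of ribonucleotide reductase (-1.08), SWI6 (-0.65) and ORC6 (-0.65). CLN3, the cyclin that acts first in G1, had 11.71 and 11.17 in the sugar feed and 10.43 and 11.49 at the start. Its arrays overlapped and it was not called (0.48, limma adjusted p = 0.281), but it was called higher without start replicate 2 (0.0348). In a bulk culture, more cells in a phase and more message per cell cannot be told apart.

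The histone genes did not follow the replication genes. Of 9 measured, 2 were called higher and 2 lower, and the median was -0.11 (0.38 after a correction for gene length that was added after seeing the data). The linker histone gene HHO1 rose by 1.39 and HTB2 by 0.76, while HHT2 (-0.47) and HHT1 (-0.33) were called lower by amounts that became rises with spike-in scaling. Leaving out any 1 of the 4 arrays compared changed which of these 4 calls held, with 1 higher and 0 or 1 lower left, and without either hydrolysate array at 9 h or either sugar array at 18 h 1 of the 2 rises or 1 of the 2 falls was left.

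The messages for cytosolic ribosomal proteins rose almost as a block. Of 129 measured genes for proteins of the cytosolic ribosome 123 were called higher and none lower (median 1.38), and 86 of them rose at least 2-fold. Among them RPL31B had 13.19 and 13.30 in the sugar feed, against 10.11 and 10.02 at the start, a rise of 3.18 (SE 0.141, limma adjusted p = 2.53e-06). RPS11A rose by 2.99, RPL4B by 2.96 and RPS0B by 2.85. In 22 of the 129 genes the name of the probe set marks it as one that may read other sequences too, so paralogs may not be separated there. None of the 129 differences was below 0; the lowest was 0.0015.

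The genes for factors that build ribosomes moved in the same direction. Ribosome biogenesis had 83 of 89 members higher and none lower (median 1.72). PWP2, a component of the particle that matures the small subunit, rose by 3.26 and the RNA helicase gene DBP3 by 3.14. MAK16, needed for the large subunit, rose by 3.13, and NOP1, the fibrillarin that methylates ribosomal RNA, by 3.13. The subunits of RNA polymerases I and III, which transcribe ribosomal and transfer RNA, had 16 of 21 higher and 1 lower (median 1.38, or 0.93 after a further quantile normalization). RPA49 rose by 2.64 and RPA135 by 2.54, and RRN3, an initiation factor of polymerase I, was called lower (-0.69) until start replicate 2 or sugar replicate 2 was left out. Of the translation factors and tRNA synthetases 40 of 49 were higher and none lower (median 1.15). FRS2, of phenylalanyl-tRNA synthetase, was in front at 3.98 (11.98 and 11.83 in the sugar feed, 7.76 and 8.09 at the start), followed by the elongation factor genes EFB1 (2.90) and TEF4 (2.75) and by FRS1 (2.64), the other synthetase subunit. Beside these rises the ribosomal RNA probe sets themselves averaged 5.93 in the sugar feed and 8.12 at the start, and their part in the list was not tested.

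**Figure D3:**
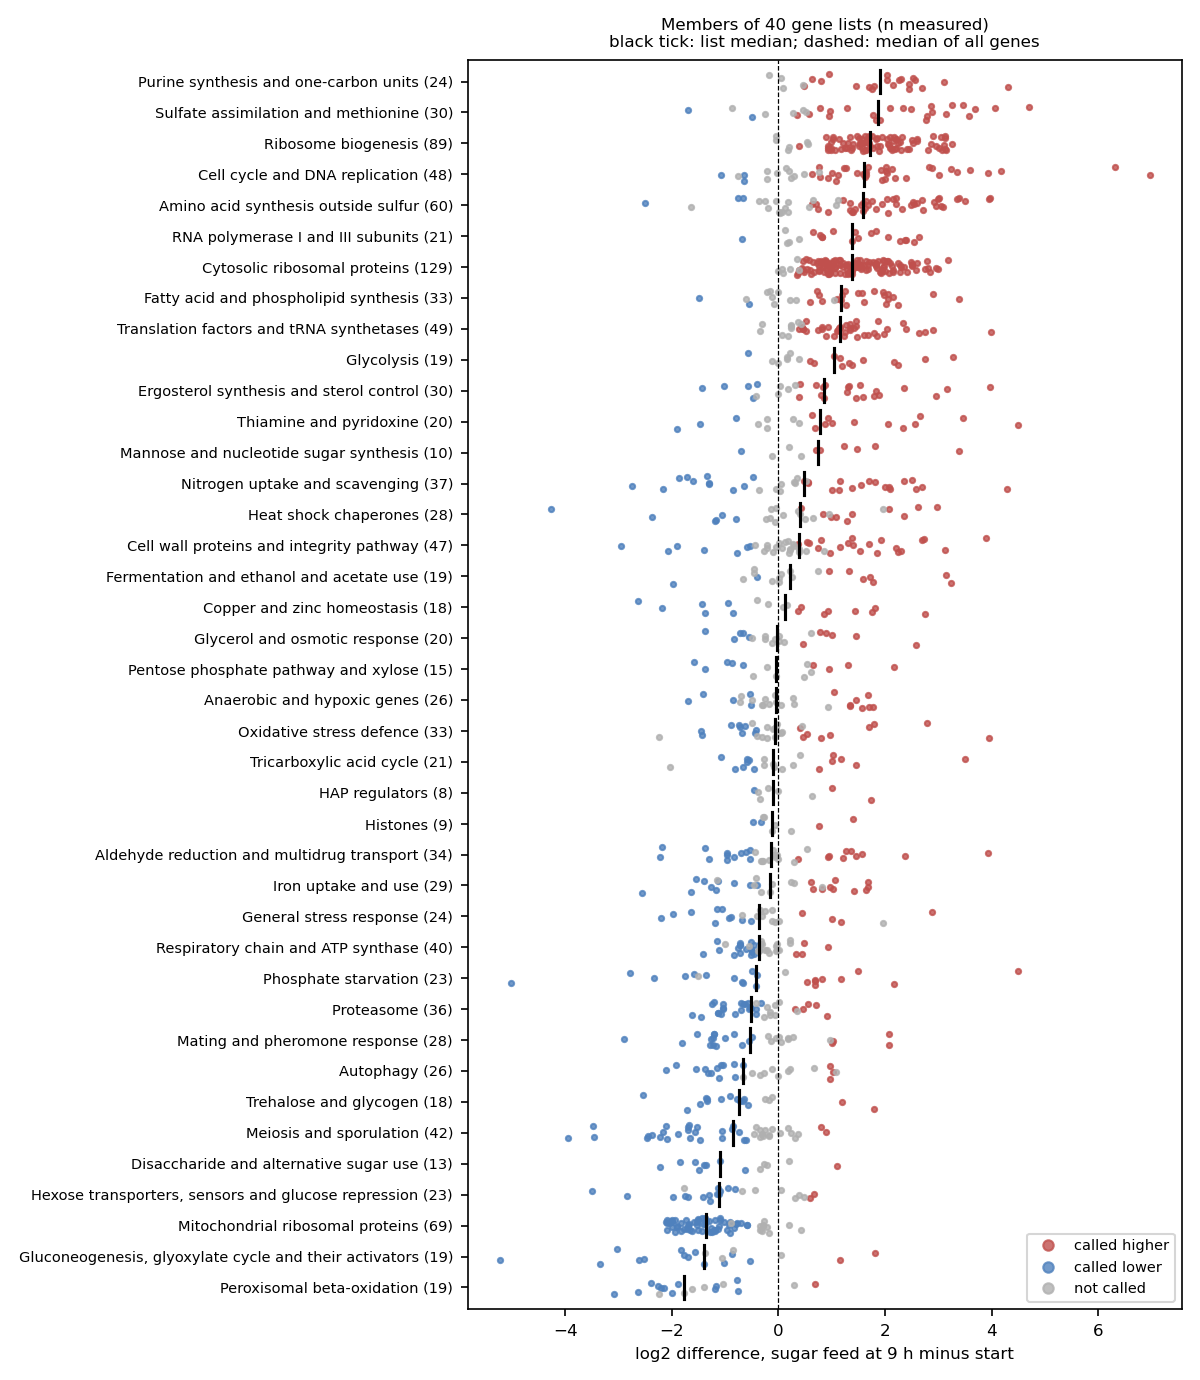
log2 difference (sugar feed at 9 h minus start) of each measured member of 40 gene lists, ordered by list median (black tick), with called members in red (higher) or blue (lower) and the rest in grey; the dashed line is the median of all 5654 genes. The lists for purine synthesis (median 1.91) and peroxisomal beta-oxidation (-1.77) are the outermost, and no member of the cytosolic ribosomal protein list lies below 0.

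Most genes for the synthesis of purines, amino acids and sulfur compounds were higher as well. In purine synthesis and one-carbon metabolism 20 of 24 members were higher and none lower (median 1.91). ADE4, the enzyme of the first step of the pathway (YMR300C, chromosome XIII, 865559 to 867091), had 10.81 and 10.97 in the sugar feed, against 6.83 and 6.35 at the start, a rise of 4.30 (SE 0.205, limma adjusted p = 2.97e-06). IMD3, of guanine nucleotide synthesis, rose by 3.10, the salvage gene HPT1 by 2.69 and ADE5,7 by 2.56. Amino acid synthesis outside the sulfur branch had 42 of 60 members higher and 3 lower (median 1.59). The members lower were ARO9 (-2.51) and BAT2 (-0.66), transaminases that also serve amino acid breakdown, and ARG3 (-0.75), and 1 or none of them was called when 1 of the 4 arrays compared was left out. The leaders of the rises were ILV5 (3.97), BAT1 (3.94) and LEU2 (3.50) of branched-chain amino acid synthesis and the glutamine synthetase gene GLN1 (3.39). ILV5 stood at 14.20 and 14.09 in the sugar feed and at 10.06 and 10.29 at the start.

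Sulfate assimilation and methionine synthesis had 23 of 30 members higher and 2 lower (median 1.87). SAM2, which makes the methyl donor S-adenosylmethionine (YDR502C, chromosome IV, 1453310 to 1454464), had 13.63 and 13.70 in the sugar feed and 9.02 and 8.91 at the start. With a rise of 4.70 (SE 0.145) it had the lowest adjusted p of all named genes (limma adjusted p = 1.95e-06). CYS3, which forms cysteine from cystathionine, rose by 4.07, the ATP sulfurylase gene MET3 by 3.70 and the sulfate permease gene SUL2 by 3.57. The regulator gene MET31 (-1.70) and the S-adenosylmethionine permease gene SAM3 (-0.49) were lower, 1 of the 2 without start replicate 1, sugar replicate 1 or either sugar array at 18 h. Thiamine and pyridoxine synthesis had 12 of 20 higher and 3 lower (median 0.78), led by PHO3, a phosphatase that releases thiamine from its phosphates (11.41 and 11.19 in the sugar feed, 7.03 and 6.58 at the start), and by THI4 (3.46), the thiamine transporter gene THI7 (2.66) and THI20 (2.57). The members lower, SNZ1 (-1.90), SNO1 (-1.48) and PDX3 (-0.80), belong to pyridoxine metabolism.

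Nitrogen uptake and scavenging went both ways. Of 37 members 18 were higher and 11 lower, with a median of 0.48, or 0.16 after a further quantile normalization and 0.28 with a correction for gene length. The number lower was 7 without start replicate 2 or without either sugar array. DAL1 and DAL2, of allantoin breakdown, rose by 4.29 and 2.70, and the ammonium permease genes MEP3 and MEP2 by 2.58 and 2.51. MEP2 had 13.03 and 12.88 in the sugar feed and 10.47 and 10.42 at the start. The general amino acid permease gene GAP1 rose by 1.56 (limma adjusted p = 0.0122; 0.0617 without start replicate 2 and 0.0684 without sugar replicate 1), while DIP5, a permease for acidic amino acids, fell by 2.75.

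Most genes of membrane lipid synthesis were higher. Fatty acid and phospholipid synthesis had 22 of 33 higher and 2 lower (median 1.18). OLE1, the only fatty acid desaturase of this yeast, had 13.59 and 13.53 in the sugar feed and 10.58 and 10.75 at the start, a rise of 2.90 (SE 0.123, limma adjusted p = 2.53e-06). ELO3, which elongates fatty acids, rose by 3.38, the inositol transporter gene ITR1 by 2.24, PSD1 of phosphatidylethanolamine synthesis by 2.15 and the inositol synthesis gene INO1 by 1.96. GPT2 (-1.49) and DGA1 (-0.55), of glycerolipid and storage fat synthesis, were lower. In ergosterol synthesis, the route to the membrane sterol of fungi, 20 of 30 were higher and 5 lower (median 0.85). The late enzymes ERG3 (3.97), ERG5 (3.16) and ERG25 (2.95) and the demethylase gene ERG11 (2.36) led the rises. The members lower were the sterol regulator gene ECM22 (-1.44), ARE2 (-1.02), HMG2 (-0.58), ERG28 (-0.47) and ERG9 (-0.40), but their number was 2 or 3 when any of 7 single arrays was left out, both sugar arrays at 9 h among them.

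Cell wall genes rose more often than they fell, 21 against 7 of 47 (median 0.39, 0.23 with a correction for gene length). CIS3, a structural mannoprotein of the wall, stood at 13.56 and 13.57 in the sugar feed and at 9.56 and 9.78 at the start, a rise of 3.89. SCW10 rose by 3.13 and FKS1, a catalytic subunit of the glucan synthase, by 2.73. DSE1, expressed in daughter cells for wall breakdown at separation, fell by 2.96, with 9.79 and 9.88 in the sugar feed and 12.80 and 12.79 at the start. Mannose is 1 of the sugars in the feed. In the list for mannose and nucleotide sugar synthesis 6 of 10 members were higher and 1 lower (median 0.74). PMI40, the isomerase that links mannose-6-phosphate to glycolysis (YER003C, chromosome V, 157736 to 159118), had 12.78 and 12.71 in the sugar feed, against 9.46 and 9.26 at the start. It rose by 3.39 (SE 0.245, limma adjusted p = 1.03e-05), and GFA1, which feeds chitin synthesis, by 1.80. SEC53 (1.48) and PSA1 (1.24), of GDP-mannose synthesis, rose too. PGM2 fell by 0.70, a call lost without sugar replicate 2.

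In carbon metabolism, most genes of glycolysis were higher. Of 19 members 12 were called higher and 1 lower (median 1.03), and 10 rose at least 2-fold. ENO2, an enolase (YHR174W, chromosome VIII, 451327 to 452640), had 14.31 and 14.17 in the sugar feed, against 10.78 and 11.16 at the start, a rise of 3.27 (SE 0.163, limma adjusted p = 3.21e-06). The pyruvate kinase gene CDC19 rose by 2.74, HXK2, the hexokinase of cells growing on glucose, by 2.24 and the phosphoglycerate mutase gene GPM1 by 2.18. The other hexose kinase genes were not called. HXK1 had 13.90 and 13.84 in the sugar feed and 13.39 and 13.56 at the start (0.39, limma adjusted p = 0.139), and GLK1 was at -0.11 with overlapping arrays (limma adjusted p = 0.565). The regulatory kinase gene PFK26 was called lower (-0.57), and was not without start replicate 2 or without sugar replicate 1.

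The list for fermentation and the use of ethanol and acetate had 7 of 19 members higher and 2 lower (median 0.22, 0.12 with a correction for gene length), close to the genome's share of rises. The genes for pyruvate decarboxylases, which open the branch to ethanol, were higher. PDC1 had 14.54 and 14.32 in the sugar feed and 12.25 and 13.06 at the start (1.77), PDC5 rose by 1.59, and PDC6, a minor form, by 3.14 (SE 0.785, limma adjusted p = 0.00716). ACS2, the acetyl-CoA synthetase of cells growing on glucose, rose by 1.71 and the mitochondrial aldehyde dehydrogenase gene ALD5 by 3.23. The genes for ethanol and acetate oxidation stood near the top of the array's range in both groups. ADH2, the dehydrogenase that consumes ethanol, had 14.71 and 14.62 in the sugar feed and 14.57 and 14.64 at the start (0.06, limma adjusted p = 0.958). ACS1 had 14.15 and 14.02 in the sugar feed and 14.48 and 14.60 at the start (-0.46, limma adjusted p = 0.469; called lower at 0.0447 with only the 4 arrays compared and at 0.0184 without either hydrolysate array at 9 h), where the brightest gene of any of these 4 arrays lay at 15.09 or below. ADH1 (-0.40) and ALD3 (-1.98) were called lower. ALD3 lost the call without any 1 of the 4 arrays compared and ADH1 without 3 of them (start replicate 2 and both sugar arrays) or without either sugar array at 18 h, and 4 members of the list were called lower without either hydrolysate array at 9 h.

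Gluconeogenesis and the glyoxylate cycle make sugar from acetate and other small carbon compounds. PCK1, the enzyme that commits carbon to gluconeogenesis (YKR097W, chromosome XI, 631152 to 632801), had 7.64 and 8.01 in the sugar feed, against 13.08 and 13.02 at the start. It fell by 5.22 on the log2 scale, 37.3-fold (SE 0.215, limma adjusted p = 2.53e-06). Of the 19 members of the list 13 were called lower and 2 higher, with a median of -1.39 (-0.14 with spike-in scaling). In a fit of only the 4 arrays compared 16 were called lower. The count of lower members was 8 without start replicate 1 or without either sugar array. FBP1, fructose-1,6-bisphosphatase, had 10.52 and 10.54 in the sugar feed and 13.15 and 12.96 at the start (-2.53). ICL1 (-2.62) and MLS1 (-1.77), the enzymes particular to the glyoxylate cycle, and the activator genes SIP4 (-3.35) and CAT8 (-0.87) fell too, CAT8 by less than the shift of spike-in scaling. REG2, a regulatory subunit of a phosphatase, fell by 3.03.

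Some genes of the same programme did not follow. The activator gene ADR1 rose by 1.16 (11.40 and 11.25 in the sugar feed, 9.88 and 10.45 at the start). JEN1, the lactate and pyruvate permease that glucose represses, had 13.96 and 13.83 in the sugar feed and 13.71 and 13.98 at the start. Its arrays overlapped and it was not called (0.05, limma adjusted p = 0.876). DAL7, a malate synthase of allantoin breakdown, was the other member called higher (1.80).

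Beta-oxidation, by which peroxisomes break fatty acids down, had the lowest median of the 40 lists (-1.77, or -0.52 with spike-in scaling). Of 19 members 12 were called lower and 1 higher (PEX21, 0.68), a rise whose call was lost without either sugar array at 9 h or at 18 h. DCI1 (-3.08) and ECI1 (-2.64), isomerases for unsaturated fatty acids, led with PXA2 (-2.38), part of the peroxisomal fatty acid importer, and IDP3 (-2.26). ECI1 had 11.26 and 11.41 in the sugar feed and 13.87 and 14.08 at the start. The enzymes of the main pathway POX1 (-1.77), FOX2 (-1.63) and POT1 (-1.39) had smaller differences and were not called in the fit of all 10 arrays. With only the 4 arrays compared, 17 members of the list were called lower and 0 higher. PEX9, an import receptor of peroxisomes and no member of the list, was among the 15 largest falls (5.85 and 6.21 in the sugar feed, 10.17 and 10.90 at the start, difference -4.50).

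**Figure D4:**
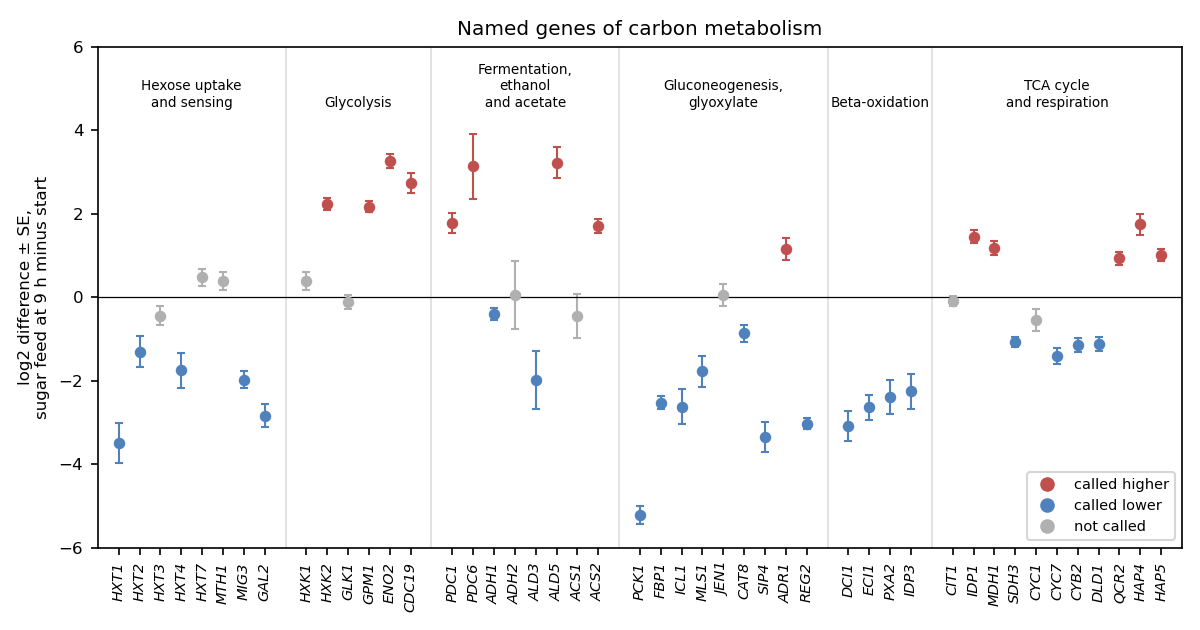
log2 difference (sugar feed at 9 h minus start) with its standard error from the limma fit for named genes of carbon metabolism, grouped by role; red genes were called higher, blue lower and grey not called. ENO2 (3.27) and ALD5 (3.23) stand highest and PCK1 (-5.22) lowest, while ADH2, JEN1 and CIT1 lie near 0.

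Hexose transporters bring the sugars of the feed into the cell, and glucose sensors and repressors set which of them are made. Of 23 members of this list, 14 were called lower, with a median of -1.11 (0.14 with spike-in scaling), and 2 higher, the repressor genes MIG1 (0.67) and RGT1 (0.59), of which 1 was called without sugar replicate 1. HXT1, the low-affinity transporter induced by high glucose, had 5.44 and 5.78 in the sugar feed, against 8.21 and 9.99 at the start (-3.49, SE 0.472, limma adjusted p = 0.000249). HXT4 fell by 1.75, the repressor gene MIG3 by 1.97 and the high-affinity transporter gene HXT2 by 1.31, a call lost without start replicate 1 (limma adjusted p = 0.0643) or sugar replicate 2 (0.0930). The galactose permease gene GAL2 had 5.68 and 6.01 in the sugar feed and 8.28 and 9.07 at the start (-2.83). The high-affinity HXT7, whose probe set is marked as shared, had 12.54 and 12.47 in the sugar feed and 12.02 and 12.03 at the start. Its arrays did not overlap, but it was not called (0.48, limma adjusted p = 0.063). It was called higher with only the 4 arrays compared (0.0326), after quantile normalization (0.0415), with spike-in scaling and without either sugar array at 18 h (0.0271). HXT3 (-0.44) and the regulator gene MTH1 (0.39) were not called either, but HXT3 was called lower without start replicate 1 (limma adjusted p = 0.0463) and MTH1 higher without start replicate 2 (0.00683). Genes for disaccharides and galactose had 8 of 13 lower and 1 higher, the inducer gene GAL3 (1.10; list median -1.09, or 0.15 with spike-in scaling), with GAL10 at -2.22, the isomaltase genes IMA5 (-1.85) and IMA1 (-1.56) and GAL7 (-1.49). Invertase, SUC2, was not called (-0.21, limma adjusted p = 0.491).

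Xylose, the third sugar of the feed, is used poorly by unmodified S. cerevisiae. The list for the pentose phosphate pathway and xylose had 4 of 15 higher and 5 lower (median -0.04), which is near the genome's shares. The number lower was 3 without either start array and 2 without sugar replicate 1. TKL1, transketolase, had 12.86 and 12.75 in the sugar feed and 10.73 and 10.56 at the start (2.16), and GND1 (1.31), RPE1 (0.94) and the transaldolase gene TAL1 (0.65) rose. Xylulokinase, XKS1, had 10.62 and 10.72 in the sugar feed, against 12.06 and 12.04 at the start (-1.38). GRE3 (-0.96), which reduces xylose, NQM1 (-0.87), SOR2 (-0.66) and SOL4 (-1.59) were lower too, SOL4 with a call lost without start replicate 2 or sugar replicate 1.

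Mitochondrial ribosomal proteins had 58 of 69 members lower and none higher, with a median of -1.36. After the same correction for gene length that median was -1.12, and it was -0.11 with spike-in scaling. MRPL20 had 10.82 and 11.15 in the sugar feed and 13.29 and 12.89 at the start (-2.10), and MRPL17, MRPL15 and MRPL24 each fell by about as much. The cytosolic and the mitochondrial ribosome stood on opposite sides of the median gene, and both were far from its shares of 33.9% and 32.2%.

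The respiratory chain and ATP synthase had 19 of 40 members lower and 4 higher (median -0.37). Without sugar replicate 1 the counts were 9 and 1, and without start replicate 1 they were 12 and 2. With the length trend removed the median was 0.07, so the list as a whole had no settled direction. The median stayed negative after a further quantile normalization (-0.28) and after median centring (-0.41). With spike-in scaling, which adds the same 1.247 to every gene, it was 0.87. CYC7, the cytochrome c isoform of low oxygen, had 12.29 and 12.33 in the sugar feed and 13.71 and 13.73 at the start (-1.41). The lactate dehydrogenase genes CYB2 (-1.14) and DLD1 (-1.12) fell by less than the shift of spike-in scaling. QCR2 rose by 0.94, and ATP2 (0.48), ATP1 (0.45) and COR1 (0.32) were the others called higher. CYC1, the main cytochrome c, was not called (-0.55, limma adjusted p = 0.0961; called lower at 0.033 with only the 4 arrays compared and at 0.0486 without either sugar array at 18 h). The regulator gene HAP4, which drives respiratory genes, had 11.41 and 11.08 in the sugar feed, against 9.27 and 9.72 at the start (1.75, SE 0.25, limma adjusted p = 0.000349), and its partner HAP5 rose by 1.01.

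The tricarboxylic acid cycle had 6 of 21 higher and 7 lower (median -0.10). IDP1 (1.46) and MDH1 (1.18), a mitochondrial isocitrate and a mitochondrial malate dehydrogenase, were among the members that rose. The succinate dehydrogenase gene SDH3 fell by 1.08. CIT1, which opens the cycle, had 14.07 and 14.07 in the sugar feed and 14.19 and 14.13 at the start (-0.10) and was not called (limma adjusted p = 0.513).

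Relative to the median gene, storage carbohydrate genes were lower. In trehalose and glycogen metabolism 13 of 18 members were called lower and 2 higher, with a median of -0.75 (0.50 with spike-in scaling). SGA1, a glucoamylase of sporulating cells, fell by 2.54. TPS2, of trehalose synthesis, had 12.73 and 12.53 in the sugar feed, against 14.30 and 14.39 at the start (-1.72), and GLG1, which primes glycogen, fell by 1.47. Glycogen synthase GSY2 was at -1.07 and TPS1 at -0.92, and TPS1 lost the call without start replicate 2 (limma adjusted p = 0.124) or either sugar array (0.056 and 0.09). GAC1 (1.80) and PIG1 (1.20), phosphatase subunits that act on glycogen synthase, rose.

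The general stress list had 10 of 24 lower and 4 higher (median -0.37, -0.10 with the length trend removed and 0.88 with spike-in scaling). The small heat shock protein gene HSP26 had 12.87 and 12.96 in the sugar feed, against 10.16 and 9.91 at the start, a rise of 2.88 (SE 0.607, limma adjusted p = 0.00298). The genes for the general stress factors, MSN2 (1.17) and MSN4 (1.01), and HSP31 (0.45) were the other members higher. HSP12, a membrane-protecting stress protein, lay at 14.93 and 14.95 in the sugar feed and 15.06 and 15.05 at the start, at the top of the arrays' range, and was not called. PAI3, an inhibitor of a vacuolar protease, fell by 2.20 and RTN2 by 1.64, and RTN2 lost the call without any 1 of the 4 arrays compared. Heat shock chaperones had 10 of 28 higher and 6 lower (median 0.41, 0.16 with the length trend removed). The ribosome-bound SSB2 (2.62) and the co-chaperone YDJ1 (2.97) rose, while HSP30, a regulator of the plasma membrane proton pump (YCR021C, chromosome III, 156109 to 157107), had 7.41 and 8.40 in the sugar feed, against 12.13 and 12.21 at the start (-4.26, SE 0.759, limma adjusted p = 0.00117), and BTN2 fell by 2.37.

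Oxidative stress defence had 9 of 33 higher and 9 lower (median -0.06), and the number higher was 4 without sugar replicate 2 and 5 without start replicate 2. OYE2 and OYE3, old yellow enzymes that use NADPH, rose by 3.95 and 2.78 and GSH1, of glutathione synthesis, by 1.70. The list for aldehyde reduction and multidrug transport had 10 of 34 higher and 12 lower, with a median of -0.14 and 6 lower without sugar replicate 1. PDR12, an exporter of weak acids, had 12.88 and 12.91 in the sugar feed and 8.44 and 9.49 at the start (3.93), and ADH6 rose by 2.37, while ARI1 (-2.22) and PDR15 (-2.19) fell.

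The proteasome, which degrades marked proteins, had 22 of 36 members lower and 5 higher, with a median of -0.52 (0.73 with spike-in scaling). The members higher were PUP1 (0.90), PRE5 (0.70), RPN10 (0.55), PRE3 (0.47) and RPT1 (0.32), and they were 3 in number without start replicate 1 or either sugar array. RPN12, of its regulatory cap, had 11.02 and 11.05 in the sugar feed, against 12.63 and 12.68 at the start (-1.62), and ECM29, a proteasome-binding protein, fell by 1.45. Autophagy had 13 of 26 lower and 3 higher (median -0.66, or 0.58 with spike-in scaling). ATG13 (1.01), ATG2 (0.97) and ATG18 (0.97) were the members higher, and 5 were without start replicate 2. ATG20 (-2.10), ATG12 (-1.91) and ATG17 (-1.54) fell, and so did ATG8, the protein that is attached to the growing autophagosome membrane (12.23 and 12.26 in the sugar feed, 13.57 and 13.68 at the start, -1.38).

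Meiosis is entered by starved diploid cells that lack a fermentable sugar. Of its 42 measured genes 25 were called lower, with a median of -0.86 (0.39 with spike-in scaling), and 2 higher, SPS4 (0.89) and SPO16 (0.81), 1 of them without start replicate 1 or either sugar array. The master regulator gene IME1 (YJR094C, chromosome X, 604569 to 605651) had 8.18 and 7.87 in the sugar feed, against 11.48 and 11.47 at the start (-3.45, SE 0.257, limma adjusted p = 1.19e-05). The kinase gene IME2 fell by 3.49 and DMC1, the recombinase of meiosis, by 3.95. REC114 was below background on both sugar arrays and was at least 4.03-fold lower. SLZ1, a protein linked to the methylation of meiotic messages and no member of the list, was among the 15 largest falls (-4.96). Mating and pheromone response had 15 of 28 lower and 4 higher (median -0.53, or 0.72 with spike-in scaling), with BAR1, the protease of a cells that destroys alpha-factor, at -2.89 and FUS1 at -1.80. The kinase genes KSS1 and STE20 both rose by 2.07 and the transcription factor gene STE12 by 1.00, and the other of the 4 called higher was MF(ALPHA)1, which was above background on 1 sugar array and on neither start array, so that no fold is given.

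Phosphate and metal genes were divided. Phosphate starvation genes had 9 of 23 higher and 12 lower (median -0.42, or 0.83 with spike-in scaling), and 5 higher without start replicate 2 or sugar replicate 2. SPL2, which acts on low-affinity phosphate transport (YHR136C, chromosome VIII, 374654 to 375100), had 6.87 and 7.18 in the sugar feed, against 12.32 and 11.76 at the start (-5.02, SE 0.367, limma adjusted p = 1.08e-05). The sodium-phosphate cotransporter gene PHO89 fell by 2.79. The main high-affinity transporter gene PHO84 had 5.02 and 5.21 in the sugar feed and 7.21 and 6.04 at the start. Its arrays did not overlap, but it was not called (-1.51, limma adjusted p = 0.0753), although it was with only the 4 arrays compared (0.0179) and without either hydrolysate array at 9 h (0.00884).

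Iron genes had 10 of 29 higher and 10 lower (median -0.16; 6 higher without sugar replicate 1). The low-affinity transporter gene FET4 (1.69) and the high-affinity permease gene FTR1 (1.68) rose and the regulator gene AFT2 fell by 2.56. Copper and zinc genes had 8 of 18 higher and 6 lower (median 0.12; 5 higher without start replicate 1). The zinc transporter gene ZRT1 (2.74) and the copper transporter gene CTR1 (1.81) rose. The metallothionein genes CUP1-1 (-2.64, shared probe set) and CRS5 (-2.18) fell. CUP1-1 had 10.27 and 10.80 in the sugar feed and 13.22 and 13.13 at the start.

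Hypoxic and anaerobic genes had 8 of 26 higher and 5 lower (median -0.05; 9 lower without start replicate 1). The members lower were PAU24 (-1.69, shared probe set), CYC7 (-1.41), PDR11 (-0.85), OSM1 (-0.53) and COX5B (-0.50), and those higher were led by the fumarate reductase gene FRD1 at 1.78 and the heme synthesis gene HEM13 at 1.69. Glycerol and osmotic response had 6 of 20 higher and 5 lower (median -0.02). The glycerol phosphate dehydrogenase gene GPD2 rose by 2.58 and STL1, which imports glycerol and is repressed by glucose, had 12.25 and 12.26 in the sugar feed and 13.66 and 13.59 at the start (-1.37). GRE2 (-0.84), GCY1 (-0.73), GUP1 (-0.66) and GPD1 (-0.55) were the others lower. Of the 8 genes for HAP regulators and retrograde signalling 2 were higher (HAP4 and HAP5) and 1 lower, RTG2, which is needed for the signal from mitochondria to the nucleus (-0.45, a call lost without start replicate 2 or sugar replicate 2; 2 members were lower without start replicate 1).

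Several of the largest falls belonged to genes outside the lists. YLR012C, an uncharacterised reading frame (chromosome XII, 169982 to 170281), had 5.02 and 5.10 in the sugar feed, against 11.02 and 10.36 at the start, the lowest difference of all genes tested (-5.62, SE 0.251, limma adjusted p = 2.53e-06). SRL4 (chromosome XVI, 487362 to 488207), known as a suppressor of the lethality of lost Rad53, had 5.66 and 6.10 in the sugar feed and 11.03 and 11.43 at the start (-5.35). BAG7, a GTPase-activating protein for Rho1, fell by 4.66, MGA1, which resembles heat shock transcription factors, by 4.15 and the kinetochore gene NKP1 by 4.07. FMP48, a mitochondrial protein, fell by 3.61 and SRT1, of dolichol synthesis, by 3.88. YOL131W and YBL008W-A were below background in the sugar feed and at least 14.6-fold and at least 11.3-fold lower.

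Gene length went with the difference. Among 5601 genes with coordinates the shortest 25% had a median of -0.40, the next 25% -0.01, the following 25% 0.16 and the longest 25% 0.20. Of the shortest 19.5% were called higher and 44.4% lower, and of the longest 40.7% and 22.7%. The 650 reading frames without a standard gene name had 16.0% called higher and 46.2% lower, against 36.3% and 30.4% of the 5004 named genes. The 383 genes within 30 kb of the outermost measured gene of a chromosome had 25.1% called higher and 35.8% lower, against 34.4% and 32.1% elsewhere. By chromosome the share called higher ran between 25.8% (chromosome VI) and 38.8% (chromosome V). The 10 lists whose reported medians lay nearest 0 had medians between -0.38 (aldehyde reduction and multidrug transport) and 0.38 (histones) once the trend on length was removed. The part of gene length and of the 3′ minus 5′ values given above in these differences was not tested.

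The levels at 9 h were then set beside those at 18 h of the same feed. The 18 h arrays differed from the 9 h arrays in 3332 genes (58.9%), 1806 higher at 18 h (31.9%) and 1526 lower (27.0%). These counts and the comparison with the start share the 9 h arrays. Against the start, 3760 genes were called at 18 h (66.5%), of which 2081 were higher (36.8%) and 1679 lower (29.7%). The genes with the largest changes were chosen on the 9 h arrays, which favours a step back from them, so their steps are given as a description. All 15 genes with the largest rises were called lower at 18 h than at 9 h. RNR1 averaged 6.45 ± 0.564 at the start, 12.77 ± 0.056 at 9 h and 6.64 ± 0.323 at 18 h (SD, n = 2), and the step between 9 h and 18 h was -6.14. PCL1 averaged 5.85 ± 0.922 at 18 h, a step of -5.41, TOS6 7.92 ± 0.844 and CLN2 5.63 ± 0.251. Of the 15 largest falls 9 were higher at 18 h than at 9 h. PCK1 averaged 13.05 ± 0.0389 at the start, 7.83 ± 0.26 at 9 h and 11.04 ± 0.0993 at 18 h, with a step of 3.22, and the step of HSP30 was 4.34. YLR012C, MGA1, NKP1 and DMC1 were not called between 9 h and 18 h.

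**Figure D5:**
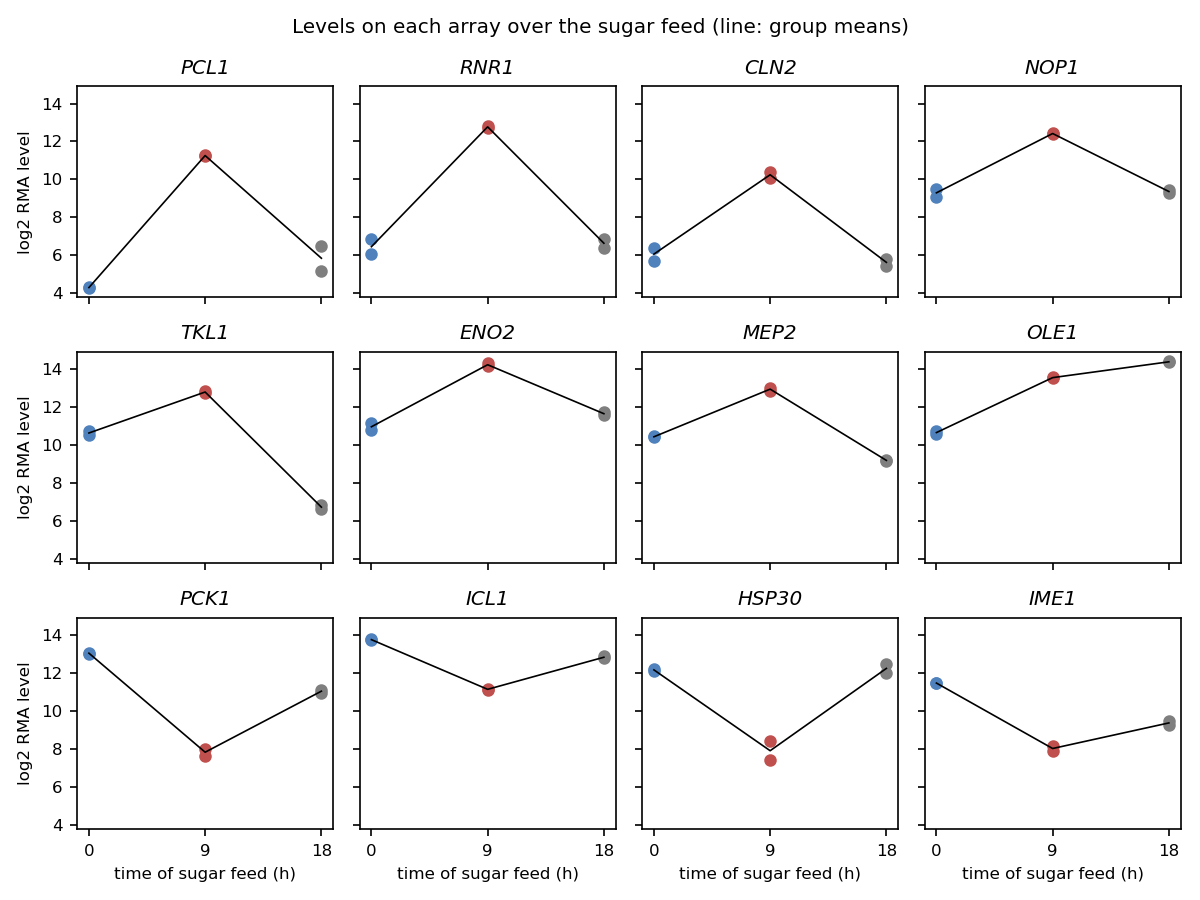
log2 RMA level of 12 named genes on each array at 0 h (start, blue), 9 h (red) and 18 h (grey) of the sugar feed, with lines through the group means. The first 7 panels peak at 9 h, OLE1 is highest at 18 h, and the 4 lower panels are lowest at 9 h; HSP30 at 18 h is at its level of the start and IME1 is not.

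By list, the 18 h step was lower in 128 of 129 cytosolic ribosomal proteins and in 57 of 89 ribosome biogenesis genes. Against the start, the median of the ribosomal proteins was 1.38 at 9 h and 0.16 at 18 h. Amino acid synthesis was lower in 40 of 60 (median against the start 1.59 at 9 h and -0.09 at 18 h) and the cell cycle list in 31 of 48 (1.60 and 0.24). Sulfate assimilation did not move as a block, with 7 higher and 9 lower of 30 (1.87 and 1.57). Autophagy was higher at 18 h than at 9 h in 23 of 26 members (-0.66 and 0.76 against the start) and the proteasome in 24 of 36 (-0.52 and 0.02). Mitochondrial ribosomal proteins did not return, with 1 higher and 15 lower of 69 (-1.36 and -1.75). Single genes reached levels beyond both earlier times. TKL1 averaged 10.64 ± 0.116 at the start, 12.80 ± 0.0757 at 9 h and 6.74 ± 0.137 at 18 h, and HXK2 averaged 10.72 ± 0.164, 12.96 ± 0.0366 and 8.19 ± 0.135 at these times. CYC1 averaged 10.24 ± 0.544 at 18 h, and its step between 9 h and 18 h was -3.04.

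The hydrolysate feed at 9 h, which also brought sugars, was set beside the sugar feed at 9 h, list by list; both are differences from the same start arrays. In hydrolysate 3546 genes were called against the start (62.7%). Ribosome biogenesis had a median of 1.80 in hydrolysate and 1.72 in the sugar feed, cytosolic ribosomal proteins 1.25 and 1.38, and purine synthesis 1.94 and 1.91. Peroxisomal beta-oxidation stood at -3.30 in hydrolysate and -1.77 in the sugar feed, gluconeogenesis at -2.01 and -1.39, and mitochondrial ribosomal proteins at -0.66 and -1.36. The hydrolysate arrays at 9 h differed widely in some of these genes, such as ICL1 (10.66 and 12.30) and IDP3 (9.34 and 10.89). They did not in others, such as FBP1 (11.13 and 11.21). Most members of these lists were not called between the feeds themselves. Where members of the last 3 lists were called, their share exceeded that of all genes (5.77% higher in hydrolysate, 3.91% lower). In hydrolysate 0 of 19 beta-oxidation genes were higher and 3 lower. Of 19 gluconeogenesis genes 3 were higher and 0 lower, against the direction of the medians. Of 69 mitochondrial ribosomal protein genes 7 were higher and 0 lower. Tested between the feeds at 9 h, 547 genes were called (9.67%), 326 higher in hydrolysate (5.77%) and 221 lower (3.91%), a count that ran between 30 and 1550 when 1 of the 4 arrays was left out. Of the 15 largest rises, HCM1 (-1.60) and PRY2 (-1.18) were lower in hydrolysate than in the sugar feed. GAL7 averaged 13.95 ± 0.0271 in hydrolysate at 9 h, 6.11 ± 0.329 in the sugar feed at 9 h and 7.59 ± 0.36 at the start, and the difference between the feeds was 7.84 (limma adjusted p = 9.71e-07). Among respiratory regulators HAP4 averaged 12.45 ± 0.418 in hydrolysate and 11.24 ± 0.231 in the sugar feed (difference 1.21, limma adjusted p = 0.0281).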

How the data were processed

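Total RNA of 10 arrays in 5 groups of 2 biological replicates was extracted with Trizol and amplified in 1 cycle with biotin labelling, per the labels' protocols. The labels do not name the array type. The deposited log2 values are RMA levels; R 4.2.1, affy 1.74.0 and limma 3.52.4 are listed in the submitters' processing notes, with no order or role. The later sampling is given as 18 h in the labels.

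The value table holds 10928 probe sets. Organism and reading frame came from the authors' deposited table, of which 10 columns with values per array stayed unused. Among the 5811 probe sets for S. cerevisiae 108 named no reading frame, and the other 5703 gave 5654 genes. Here 47 genes had several probe sets. For 112 genes the name of the probe set ended in _s_at or _x_at, which marks probes that may read other sequences too. These are called shared, and the other sequences were not looked up. Precision is limited by the number of arrays.

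The test was the linear model of limma 3.58.1 (lmFit with eBayes, R 4.3.3, 5 residual and 3.49 prior degrees of freedom) over all 10 arrays, with Benjamini-Hochberg adjustment and calls at an adjusted p under 0.05. Means, SDs and counts were computed in Python 3.11.15 with pandas 2.3.3. "At least" folds are given where neither array of the dimmer group exceeded background. They set the mean of the brighter group against the mean background of the dimmer group's arrays. The test was run first on simulated arrays built with the gene means and SDs of the real ones, with 50 changed genes of each size. It recovered 10% of changes of 0.5, 70% of changes of 1 and 98% of changes of 2. Far fewer genes changed there than were called here, so these rates need not hold for the real arrays.

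Named genes were the 15 largest rises and falls that were called, did not overlap between groups, were above background on both arrays of the brighter group and had a probe set of their own, up to 4 called members of each of 40 lists, and 36 key genes. Other genes, such as the members behind counts of 5 or fewer, were named after their values were seen. The members and lists were chosen with earlier results of these data known. Lists were described by counts and medians without a test. Promoter sequences were not analysed here. The values of 1 gene that the rule named are not reported here. Alternatives were another prior, fits of the 4 arrays compared and with a replicate block, filters on dim genes, renormalizations, all probe sets or their mean, stricter calls, removal of the length trend (lowess) and each array left out.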

Additional observations from a re-analysis of the deposited data

Results flagged for a closer look

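Each value here is a difference between the sugar feed at 18 h and at 9 h, or between the hydrolysate and the sugar feed at 9 h, that limma called in the fit of all 10 arrays for a gene of the largest changes or a key gene. It equals the difference between 2 comparisons with the start. These steps share the 9 h sugar arrays with the comparison that chose the genes of the largest changes, which favours a step back from them. The genes with the largest rises were lower at 18 h than at 9 h: PCL1 by -5.41 on the log2 scale, TOS6 by -5.67, RNR1 by -6.14, HCM1 by -2.36, SAM2 by -2.37, PHO3 by -1.09, PRY2 by -5.49, ADE4 by -1.33, DAL1 by -3.09, YJL118W by -1.98, CLN2 by -4.62, RAD53 by -1.55, YOX1 by -3.44, CYS3 by -2.70 and STB1 by -2.34. Of the largest falls, the steps were 1.87 for SRL4, 3.22 for PCK1, 2.04 for SPL2, 0.64 for SLZ1, 3.20 for BAG7, 2.03 for PEX9, 4.34 for HSP30, 2.61 for SRT1 and 3.28 for FMP48.

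Among the key genes the step between 9 h and 18 h was upward for HXT1 (1.76), MTH1 (1.55), ICL1 (1.69), MLS1 (1.09), CAT8 (1.90) and OLE1 (0.83). It was downward for HXT2 (-2.06), SUC2 (-1.39), HXK2 (-4.76), ACS2 (-2.27), CYC1 (-3.04), HAP4 (-1.17), GAP1 (-1.39), MEP2 (-3.76), MET3 (-1.74), INO1 (-3.18) and CLN3 (-1.21).

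Between the feeds at 9 h, hydrolysate was lower than sugar for HCM1 (-1.60), PRY2 (-1.18), PEX9 (-1.02) and HXT2 (-3.04). It was higher for YLR012C (0.98), PCK1 (0.90), YBL008W-A (2.65), ADH1 (0.63), FBP1 (0.64) and HAP4 (1.21). The number of calls in this comparison changed strongly when single arrays were left out.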

How the results depend on the processing

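The numbers of genes called in the sugar feed at 9 h against the start stayed within 1.5 times of the reported ones under all alternatives except a 2-fold minimum (2117 called, 1176 higher and 941 lower) and spike-in scaling (4157 higher and 246 lower, so that 94.4% of calls were higher, against 51.3%; 47.6% after quantile normalization and 49.4% after median centring). Without each array in turn the count ran between 3063 (without sugar replicate 1) and 3908, and 2796 called genes kept call and direction throughout, as did 175 of the 186 called genes among the 200 that the naming rule chose. The deviations of same-numbered replicates from their group means correlated at -0.2035 between the sugar arrays at 9 h and the start arrays. This was the value furthest from 0 of all pairs of groups. With 2 arrays a group it cannot settle whether the replicate numbers mark a pairing. With a replicate block 3618 genes were called, 3589 of them also without it, and ADH1 and HHT1 lost the call while PHO84 gained it. The comparison of feeds at 9 h was unstable. Its 547 calls became 23 (20 higher, 3 lower) with the 4 arrays alone and 337 (200 higher, 137 lower) with the block. Leaving out 1 array gave 30 to 1550 calls, 20 to 861 higher and 6 to 689 lower. Spike-in scaling adds 1.247 to every gene by its construction, so every fall smaller than that turned positive, 19 negative differences among these 200 genes included: ACS1 became 0.79, ADH1 0.85, CAT8 0.38, CIT1 1.15, CYB2 0.10, CYC1 0.69, DLD1 0.13, GLK1 1.13, GSY2 0.18, HHT1 0.92, HHT2 0.77, HSP12 1.13, HXT3 0.81, RPN11 0.0073, RPN9 0.0305, RTG2 0.80, SDH3 0.17, SUC2 1.04 and TPS1 0.33. Leaving out 1 array moved CLN3 between -0.0528 and 1.01 (called at 1.01, without start replicate 2) and the uncalled GLK1 between -0.2503 and 0.0223 and JEN1 between -0.0843 and 0.1895, across 0 in each. The number of arrays, 2 a group, limits what could be called.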
